A study of Mus musculus with 15 samples.

Results

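The genes followed here carry chloride, bicarbonate and water across the colonocyte, the columnar epithelial cell that lines the colon, or signal to that transport. They are the chloride and bicarbonate channel Cftr, the water channels Aqp4 and Aqp8, the carbonic anhydrases Car1, Car2 and Car4, the peptides Guca2a and Guca2b with their receptor Gucy2c, and the sodium channel subunit Scnn1a. They were chosen by symbol, with earlier results of these data known. Their shares, set beside those of all genes below, are therefore a description and not a test. Of the 10, 9 were among the 12370 genes that all 3 deposited tables hold, with Guca2b in the table of Irf1-/- mutants only. The study asked how loss of Irf1, a transcription factor of the interferon response, alters the colon transcriptome at steady state and after AOM/DSS, before tumors form. Distal colons gave 15 libraries in 5 groups of 3. They came from wildtype C57BL/6 (B6) mice in a pair of untreated sets (set 1 and set 2), from untreated Irf1-/- mutants on the B6 background, and from B6 mice and Irf1-/- mutants at D26. Mice at D26 had received azoxymethane (AOM, a carcinogen that alkylates DNA) at 7 mg/kg on D1 and 2% dextran sulfate (DSS, which injures the colonic epithelium) in drinking water from D8 to D11. Mice entered the AOM/DSS model at 8 to 10 weeks of age. The mutation was not restricted to a cell type, and RNA came from homogenized whole tissue, so fewer cells of a type and less RNA per cell cannot be told apart. Nothing in the labels says how libraries relate to cages or litters, and the p-values measure the spread between these libraries only.

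In the colon, sodium and chloride are absorbed by surface cells and water follows, while crypt cells secrete chloride and bicarbonate. Carbonic anhydrase supplies bicarbonate and protons from carbon dioxide, Car1 and Car2 in the cytosol and Car4 on the apical membrane. Cftr is the apical channel through which chloride and bicarbonate leave the cell, and mutations of its human counterpart cause cystic fibrosis. Guanylin (Guca2a) and uroguanylin (Guca2b) are secreted into the lumen, bind guanylate cyclase C (Gucy2c) and raise cyclic GMP, which opens Cftr and restrains sodium uptake. Aqp8 is an aquaporin of the surface colonocyte, Aqp4 lies on the basolateral membrane, and Scnn1a is the alpha subunit of the epithelial sodium channel.

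Each library held 22266607 to 22869853 counted reads. The chi-square per degree of freedom between replicate libraries was 8.65 to 42.7, where counting error alone gives about 1, so the spread between libraries far exceeded counting error. Values are CPM, counts scaled to the library total after TMM normalization, with the SD of 3 libraries. Irf1 itself stood at 94.7 ± 19.8 CPM in untreated mutants against 133 ± 6.92 in B6 set 2, and at 111 ± 11.7 against 208 ± 29.9 at D26, with no overlap of the libraries in either case. The log2 FC was -0.49 (adjusted p = 0.128) and -0.93 (adjusted p = 0.0117) in the quasi-likelihood test, which called Irf1 in neither. DESeq2 and edgeR's exact test called Irf1 lower at D26 (adjusted p = 1.05e-08 and 3.63e-07). In untreated mice they gave adjusted p-values of 0.00421 and 0.00555, at an FC under 1.5. The Irf1 transcript was still counted in every mutant library. Which exons the mutant allele keeps is not given in the sources used here. All 12 pan-epithelial markers, led by Krt8, were detected, and their summed level lay between 8197 and 10469 CPM in the 15 libraries. Libraries of B6 mice at D26 stood apart in how counts followed the GC content of genes. The slope of log2 deviation on GC content was 0.21, 0.14 and 0.31 per 10% GC in these 3 libraries and between -0.13 and 0.04 in the other 12. The main results of members that use the treated B6 libraries are therefore also given with a correction for GC content, while levels, counts of members and correlations are without it. The correction matters most for Cftr, whose exons have 40.7% GC against 46.0% to 56.5% in the other members.

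RefSeq promoters (GRCm38.p6) were at hand for 5 members. Among those 5, the log2 FC of Cftr, Aqp8 and Car4 between Irf1-/- mutants and B6 mice at D26 had the smallest p-values. None was past correction in the quasi-likelihood test. The 250 bases before the transcription start are shown for these members. They are the windows chr6:18170437-18170686, chr7:123462044-123462293 and chr11:84957504-84957753, each on the plus strand and written 5′ to 3′ with motif matches in capitals.
Cftr: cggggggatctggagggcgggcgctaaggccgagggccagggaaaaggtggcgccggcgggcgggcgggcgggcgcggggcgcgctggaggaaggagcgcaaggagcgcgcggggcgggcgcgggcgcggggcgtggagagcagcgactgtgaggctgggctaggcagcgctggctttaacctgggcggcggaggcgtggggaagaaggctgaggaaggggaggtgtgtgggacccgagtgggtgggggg
Aqp8: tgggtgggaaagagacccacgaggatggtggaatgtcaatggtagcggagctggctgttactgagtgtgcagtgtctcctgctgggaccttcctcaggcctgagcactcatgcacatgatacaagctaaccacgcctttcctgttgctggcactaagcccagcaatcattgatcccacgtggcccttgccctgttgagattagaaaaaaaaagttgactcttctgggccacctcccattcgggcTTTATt
Car4: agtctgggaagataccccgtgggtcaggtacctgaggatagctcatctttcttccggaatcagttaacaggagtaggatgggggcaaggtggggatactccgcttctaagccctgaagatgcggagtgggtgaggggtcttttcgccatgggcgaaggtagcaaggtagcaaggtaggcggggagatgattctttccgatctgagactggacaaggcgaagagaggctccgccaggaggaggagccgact
The Cftr window had 76.4% GC, more than 97% of the 32851 windows in the table, although its exons are the poorest in GC among the members. Aqp8 had 52.4% and Car4 56.4%, near the middle of all windows. Matches were sought on both strands for GAAANNGAA (the core bound by IRF factors, in 7.13% of all windows), ATAAA (a CDX core, in 37.3%), CAAAGTCCA (HNF4, in 0.384%), TATAAA (the TATA box, which holds ATAAA, in 12.4%) and TGACG (the core of a cyclic AMP response element, in 17.8%). The only match in the windows of the 5 members was ATAAA on the minus strand of Aqp8, from base -6 to base -2. A match is a matter of letters, and the absence of one says nothing about a factor.

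Per kilobase of merged exons, Car1 was the most abundant member, with a mean of 505 CPM per kb over the 15 libraries, followed by Guca2a (348), Car2 (306), Aqp8 (226) and Car4 (204). Gucy2c reached 64.5, Aqp4 55.1, Scnn1a 26.2 and Cftr 23.9 CPM per kb. Guca2b was close to the limit of detection in the 6 libraries that have it, at 3.88 to 6.9 CPM. The members also varied to different degrees. Gucy2c was the steadiest, at 234 to 272 CPM in the 15 libraries with a coefficient of variation of 3.83%, and only 0.315% of genes had a smaller one. Scnn1a varied by 11.4%, near the middle of all genes. Aqp8 varied by 33.4% and Car1 by 31.6%, more than 97.2% and 96.6% of genes. When the 5 groups were ordered by their mean for each of the 9 members, 33 of the 36 neighbouring pairs overlapped. The same ordering was not made for all genes, so whether this share is usual is not known. The exceptions were Cftr between Irf1-/- mutants and B6 mice at D26, Car2 between the untreated B6 sets, and Car4 between untreated and treated Irf1-/- mutants.

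**Figure D1:**
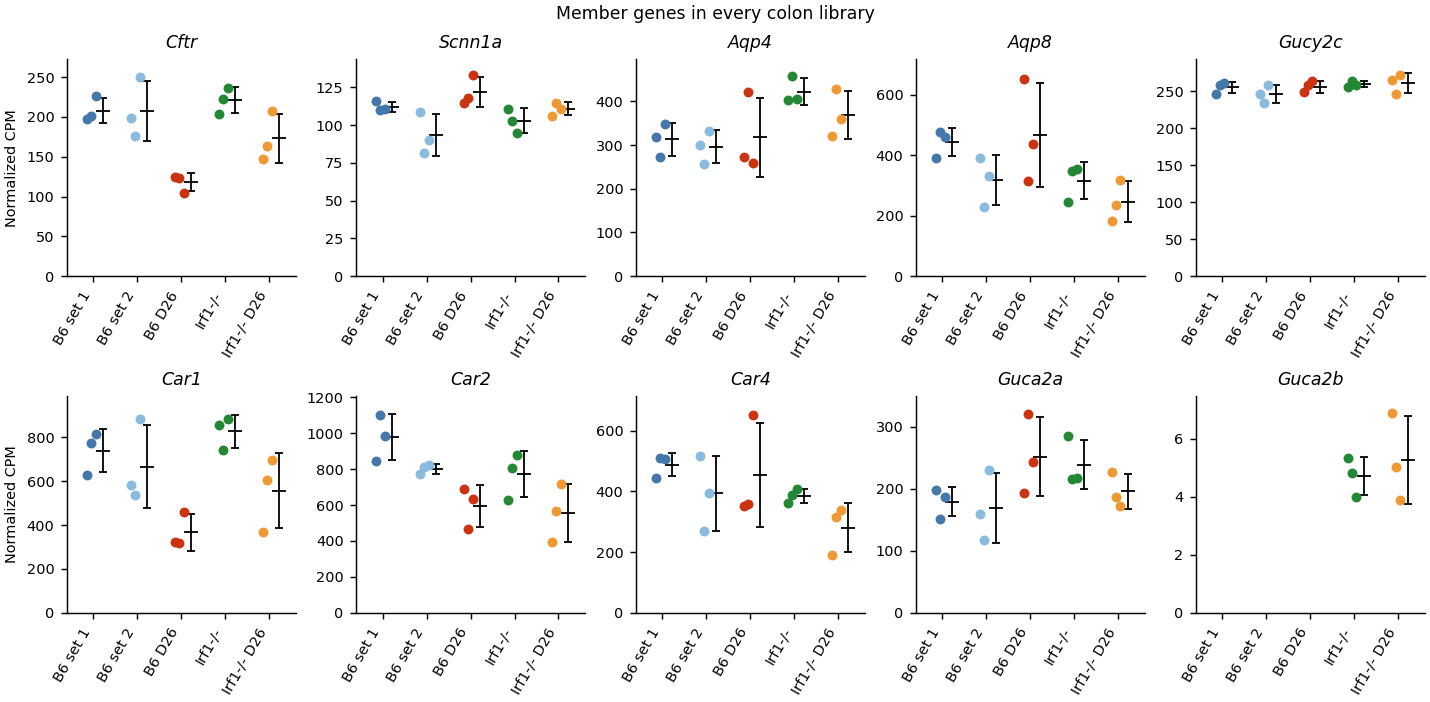
Normalized CPM (y axis, from 0) of the 10 genes in each library, by group (x axis); points are libraries and black bars the mean ± SD of 3. The 3 libraries of B6 mice at D26 lie between 105 and 125 CPM for Cftr, below every other library, while Gucy2c stays between 234 and 272 CPM throughout.

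In B6 mice, Cftr and the cytosolic carbonic anhydrases were lower at D26 than in untreated set 1. Each had an adjusted p under 0.05 in the quasi-likelihood test, and none passed the threshold for a call in that test. Cftr stood at 198, 201 and 226 CPM in untreated mice and at 125, 123 and 105 CPM at D26. The groups did not overlap, and the log2 FC was -0.81 ± 0.10 (SE), with an adjusted p of 0.0122 in edgeR's quasi-likelihood test. Car1 stood at 629, 776 and 814 CPM and then at 321, 316 and 461 CPM. All treated libraries were below all untreated ones, with a log2 FC of -1.01 ± 0.17 and an adjusted p of 0.0194. Car2 went from 845, 1101 and 983 CPM to 687, 465 and 631 CPM, again without overlap, at a log2 FC of -0.71 ± 0.16 and an adjusted p of 0.033. Guca2a was the only member at the other end, with 198, 152 and 186 CPM in untreated mice and 193, 320 and 243 CPM at D26. Its groups overlapped by 1 library, at a log2 FC of 0.51 ± 0.17, an unadjusted p of 0.0174 and an adjusted p of 0.0957, and the log2 FC was 0.30 without replicate 2 at D26. With the correction for GC content it was 0.38 (unadjusted p = 0.0705). The other 5 members had unadjusted p-values between 0.165 and 0.878. Among them, Aqp8 ranged from 390 to 476 CPM in untreated mice and from 314 to 654 CPM at D26, and Car4 from 445 to 511 and from 351 to 652 CPM. The wide range of Car4 at D26 came from replicate 3, at 652 CPM, beside 351 and 360 CPM. Without that library the log2 FC of Car4 was -0.45, with an unadjusted p of 0.00237 and an adjusted p of 0.0756.

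A gene was called where its FC reached 1.5 or more and its adjusted p was below 0.01, the thresholds of the study. By the quasi-likelihood test no member was called in B6 mice, where 0.0316% of 12643 genes were called upregulated and 0.0158% downregulated. It called far fewer genes than edgeR's exact test, with 4 upregulated and 2 downregulated beside 262 and 218. In this comparison the study reports numbers of called genes close to those of the exact test. A lack of a call by the quasi-likelihood test is therefore not a result of the study. At an unadjusted p under 0.05, 3 of the 9 members were lower and 1 was higher, against 14.8% and 14.7% of all genes. The libraries of 3 members lay wholly lower at D26 and those of 0 wholly higher, against 18.3% and 16.3% of genes. DESeq2 and edgeR's exact test each called Cftr, Car1 and Car2 downregulated, and they called 1.69% and 1.72% of all genes downregulated. A fit of all 15 libraries, or of both untreated sets together, called Cftr and Car1, where 1.49% and 1.15% of genes were called downregulated. The quasi-likelihood test also called Cftr without replicate 1 of the D26 group (log2 FC -0.86, adjusted p = 0.00699, with 0.324% of genes called downregulated). That was 1 of 6 fits with a library left out, in which the adjusted p reached 0.0564 for Cftr, 0.0848 for Car1 and 0.123 for Car2. With the mean of the pan-epithelial markers as a covariate their log2 FC was -0.59, -1.37 and -0.83 (adjusted p = 0.921, 0.887 and 0.939). With the correction for GC content the log2 FC of Cftr was -0.49 (adjusted p = 0.0329), while Car1 had -0.88 and Car2 -0.75 (adjusted p = 0.0547 and 0.0554). Against set 2 in place of set 1, Cftr and Car1 had log2 FC of -0.81 and -0.85 and Car2 had -0.42.

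Markers of other cells were read beside these genes. Car1 and Car2 are also enzymes of red cells. Of the 9 red cell markers only Alas2 was in all 3 tables, at 4.55 to 6.61 CPM in every library, and the globin genes were not among them. The summed level of the 10 markers of mature colonocytes in all tables, led by Lypd8, was 9746 ± 497 CPM in untreated set 1 and 10267 ± 195 at D26. The markers were mixed, with 4 of the 10 higher and 2 lower at an unadjusted p under 0.05, and set 2 had 8268 ± 1621 CPM. The 12 pan-epithelial markers summed to 9508 ± 573 CPM in set 1 and 10353 ± 183 at D26. Goblet cell markers moved in the direction of Guca2a, from 10738 ± 2429 to 22679 ± 3507 CPM over 8 genes, of which 7 were higher at an unadjusted p under 0.05. They also differed between the untreated sets, at 15719 ± 2039 CPM in set 2, where Guca2a had a mean of 169 CPM beside 179 in set 1. Their part in the change of Guca2a was not tested. Endothelial cells also hold Car4, and their 9 markers summed to 203 ± 8.2 CPM and 242 ± 7.4 at D26.

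In Irf1-/- mutants, Cftr, Car1, Car2 and Car4 were lower at D26 at an unadjusted p under 0.05, and none passed correction in the quasi-likelihood test. Cftr stood at 204, 222 and 236 CPM in untreated mutants and at 147, 164 and 207 CPM at D26, with an overlap of 1 library. The log2 FC was -0.35 ± 0.12, with an unadjusted p of 0.0189 and an adjusted p of 0.169 in edgeR's quasi-likelihood test. Car1 went from 854, 741 and 885 CPM to 368, 604 and 697 CPM, without overlap, at a log2 FC of -0.57 ± 0.20 (adjusted p = 0.172). Car2 went from 629, 805 and 879 CPM to 393, 564 and 715 CPM, with overlap, at -0.47 ± 0.20 (adjusted p = 0.262). Car4, the apical anhydrase, went from 361, 388 and 407 CPM to 190, 314 and 339 CPM, without overlap, at -0.45 ± 0.18 (adjusted p = 0.23). Replicate 1 of the treated mutants held the lowest value of its group for Cftr, Car1, Car2, Car4 and Aqp8. Without it the log2 FC was -0.25 for Cftr, -0.34 for Car1, -0.27 for Car2 and -0.24 for Car4. Guca2b, measured here only, had 120, 108 and 91 reads in untreated mutants and 156, 113 and 87 at D26 (adjusted p = 0.766). Gucy2c had 256 to 263 CPM and 246 to 272 CPM.

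No member was called in the mutants by the quasi-likelihood test, by DESeq2 or by edgeR's exact test. Among all genes the quasi-likelihood test called 0.205% upregulated and 0.0473% downregulated. DESeq2 called 152 of 12692 genes upregulated and 69 downregulated, and the exact test 188 and 76. At an unadjusted p under 0.05, 4 of the 10 members were lower and 0 higher, against 8.47% and 10.1% of all genes, while 2 of 9 lay wholly lower at D26 and 0 wholly higher, against 13% and 11.8% of genes. The median log2 FC of the 10 members was -0.32, beside 0.01 over all genes. The sum of the 9 members in all tables went from 3348, 3544 and 3737 CPM to 2200, 2858 and 3192 CPM. Pan-epithelial markers summed to 9339 ± 161 and 8851 ± 586 CPM, and leukocyte markers, led by Lyz2, to 385 ± 45.7 and 571 ± 6.78 CPM over 10 genes, of which 9 were higher at an unadjusted p under 0.05. Markers of mature colonocytes summed to 7504 ± 304 and 7910 ± 805 CPM, with 3 of 10 higher and 1 lower at an unadjusted p under 0.05. The 8 posterior Hox genes in all tables, led by Hoxb13, which mark the distal end of the colon, summed to 493 ± 4.32 CPM in untreated mutants and 425 ± 56.2 at D26. The part of these marker shifts in the lower values was not tested. With the mean of the epithelial markers as a covariate, the log2 FC of Cftr was -0.56, of Car1 -0.74, of Car2 -0.72 and of Car4 -0.59.

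Over both genotypes in 1 fit, a contrast that the study did not tabulate, Cftr and Car1 were called downregulated at D26. Cftr had a mean log2 FC of -0.59 ± 0.08 (adjusted p = 0.00147) and Car1 of -0.80 ± 0.15 (adjusted p = 0.00465). Car2 had -0.59 ± 0.14 and an adjusted p of 0.0156, just outside the threshold. The other 6 members had unadjusted p-values from 0.0696 to 0.877. Thus 2 of 9 members were called lower and 0 higher, against 0.352% and 0.945% of 12483 genes, and 3 and 0 passed an unadjusted p under 0.05, against 17.9% and 16.2%. DESeq2 and the fit of all 15 libraries each called 3 members lower, where they called 56 of 12483 and 48 of 12370 genes lower. With the correction for GC content neither Cftr nor Car1 was called, at a log2 FC of -0.39 for Cftr (adjusted p = 0.0159) and -0.72 for Car1 (adjusted p = 0.013). With the epithelial markers as a covariate Cftr had -0.70 and Car1 -1.05, with adjusted p-values of 0.0723 and 0.101.

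These calls were close to their thresholds and changed with single libraries. The FC of Cftr fell under 1.5 without replicate 3 of treated B6 mice (log2 FC -0.55), replicate 3 of set 1 (-0.55), replicate 1 or 2 of treated mutants (-0.53 and -0.56), or replicate 2 or 3 of untreated mutants (-0.58 and -0.56), at adjusted p-values of 0.00282 to 0.0057. The adjusted p of Car1 passed 0.01 without replicate 2 or 3 of set 1 (0.0103 and 0.0148) or without replicate 1, 2 or 3 of untreated mutants (0.0133, 0.0106 and 0.0133). Its log2 FC was then between -0.75 and -0.82. Car2 was called without replicate 3 of treated mutants (log2 FC -0.70, adjusted p = 0.007), where 0.344% of all genes were called downregulated.

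**Figure D2:**
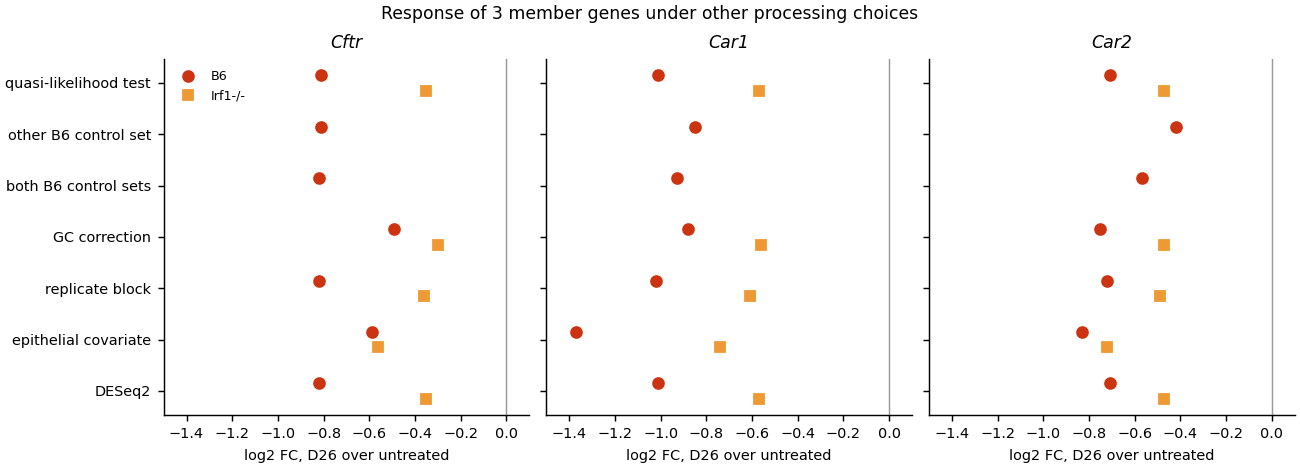
log2 FC of D26 over untreated mice (x axis) for Cftr, Car1 and Car2 in B6 mice (circles) and Irf1-/- mutants (squares) under 7 ways of processing (y axis; the other B6 control sets apply to B6 only). The value of Cftr in B6 mice moves from -0.81 to -0.49 with the GC correction, and all values stay below 0.

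The response to AOM/DSS was then compared between genotypes as the difference of the responses, Irf1-/- minus B6. Guca2a differed most, at -0.79 ± 0.25 on the log2 scale. Its mean was 179 CPM untreated and 252 CPM at D26 in B6 mice, and 239 and 196 CPM in the mutants. The unadjusted p was 0.00677 and the adjusted p 0.147. For Cftr the difference was 0.47 ± 0.17 (unadjusted p = 0.0144, adjusted p = 0.19), the log2 FC being -0.81 in B6 mice and -0.35 in mutants. Neither passed correction, and the other 7 members had unadjusted p-values of 0.149 to 0.969. No member was called by the quasi-likelihood test, which called 0.016% of genes higher and 0% lower, or by DESeq2, which called 49 genes higher and 26 lower. At an unadjusted p under 0.05, 1 member was higher and 1 lower, against 9.65% and 7.23% of all genes. With the correction for GC content the difference was 0.19 for Cftr (unadjusted p = 0.301) and -0.69 for Guca2a (unadjusted p = 0.0195). With set 2 as the untreated B6 mice it was 0.47 and -0.87, and for Aqp8 -0.92 (unadjusted p = 0.0309), against an unadjusted p of 0.223 with set 1.

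**Figure D3:**
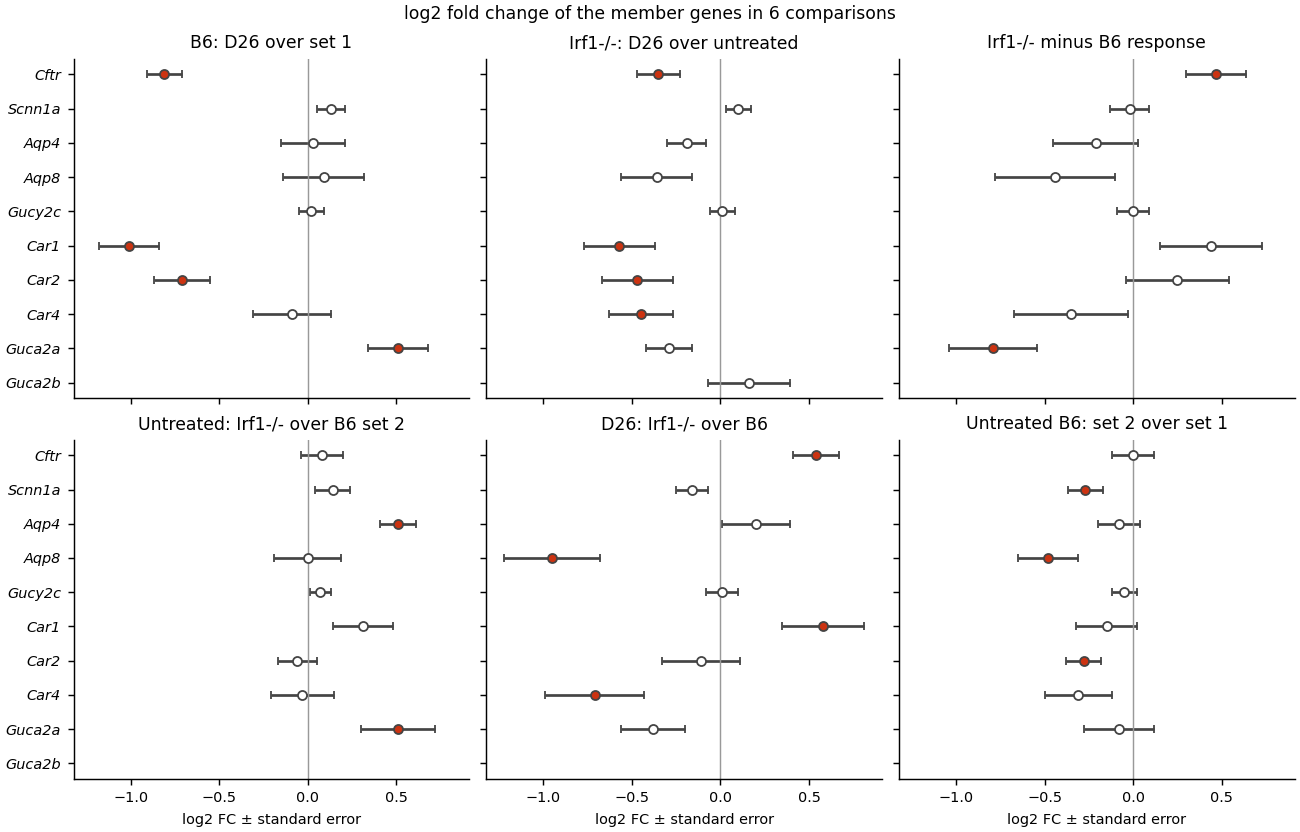
log2 FC with its standard error (x axis) of the 10 genes (y axis) in 6 comparisons; filled circles have an unadjusted p under 0.05 in edgeR's quasi-likelihood test. Cftr, Car1 and Car2 lie left of 0 in both responses, and Cftr and Aqp8 on opposite sides between genotypes at D26.

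Before treatment, Aqp4 and Guca2a were higher in Irf1-/- mutants than in B6 set 2 at an unadjusted p under 0.05, and neither was called. Aqp4, the basolateral water channel, stood at 403, 457 and 406 CPM in mutants and at 299, 256 and 331 CPM in B6 mice. The groups did not overlap, and the log2 FC was 0.51 ± 0.10 with an adjusted p of 0.0389 in edgeR's quasi-likelihood test. The FC was under 1.5, so the gene was not called. Its log2 FC was 0.43 against set 1 (adjusted p = 0.0266), 0.47 against both sets (0.0375) and 0.46 with the epithelial markers as a covariate (0.0188). The adjusted p was 2.59e-05 in DESeq2 and 0.000234 in the exact test, again at an FC under 1.5. It was 0.314 in the fit of all 15 libraries, 0.0851 with the replicate block and 0.0809 with the block and the GC correction. Leaving out 1 library at a time gave 0.42 to 0.60 with an adjusted p of 0.0293 to 0.193, and only without replicate 3 of set 2 was it under 0.05. Guca2a stood at 285, 216 and 217 CPM in mutants and at 160, 117 and 230 CPM in B6 mice, with an overlap of 1 library. The log2 FC was 0.51 ± 0.21, with an unadjusted p of 0.0348 and an adjusted p of 0.427. It was 0.30 without replicate 2 of set 2 and 0.79 without replicate 3. The other 7 members had unadjusted p-values of 0.0919 to 0.988, and Cftr had 204 to 236 CPM in mutants and 176 to 250 in B6 mice. No member was called by the quasi-likelihood test, which called 0.0874% of 12588 genes higher and 0.318% lower. DESeq2 called 31 genes higher and 76 lower and the exact test 44 and 90, again without a member. At an unadjusted p under 0.05, 2 of 9 members were higher and 0 lower, against 5.2% and 5.23% of genes. Against set 1 it was 2 higher and 3 lower, beside 1265 higher and 1280 lower of 12483 genes. The 3 lower members were Aqp8 (log2 FC -0.49, adjusted p = 0.0603), Car4 (-0.34, 0.0269) and Car2 (-0.34, 0.153). The libraries of 1 member lay wholly higher and those of 0 wholly lower, against 7.88% and 7.58% of genes. Aqp4 is also a gene of glia, and of the 8 markers of enteric glia and neurons 3 were in all tables. They summed to 22.4 to 27.6 CPM in untreated mutants and 19 to 25.3 CPM in set 2, and their part in the level of Aqp4 was not tested.

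At D26, Cftr and Car1 were higher and Aqp8 and Car4 lower in Irf1-/- mutants than in B6 mice at an unadjusted p under 0.05. None passed correction in the quasi-likelihood test. Aqp8, the water channel of surface colonocytes, had the largest log2 FC of the members, at -0.95 ± 0.27, with 184, 236 and 319 CPM in mutants and 654, 314 and 438 CPM in B6 mice. The groups overlapped narrowly, since the highest mutant (319) lay above the lowest B6 library (314), and the adjusted p was 0.101. Without replicate 1 of the B6 group, at 654 CPM, the log2 FC of Aqp8 was -0.62. Car4 had 190, 314 and 339 CPM against 351, 360 and 652 CPM, without overlap, at -0.71 ± 0.28 (adjusted p = 0.185). Its log2 FC was -0.35 without replicate 3 of the B6 group, at 652 CPM. Cftr had 147, 164 and 207 CPM in mutants against 125, 123 and 105 CPM in B6 mice. All mutants were above all B6 mice, at a log2 FC of 0.54 ± 0.13 (adjusted p = 0.0717). Car1 had 368, 604 and 697 CPM against 321, 316 and 461 CPM, with overlap, at 0.58 ± 0.23 (adjusted p = 0.196). The other 5 members had unadjusted p-values of 0.0629 to 0.927, with means of 557 ± 161 and 594 ± 116 CPM for Car2 and 196 ± 28.5 and 252 ± 63.7 CPM for Guca2a.

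No member was called between the genotypes at D26 by the quasi-likelihood test or DESeq2, and edgeR's exact test called Aqp8 (adjusted p = 0.00544), with 1.19% of all genes called lower. Without the GC correction, Cftr had a log2 FC of 0.55 in DESeq2 with an adjusted p of 0.00536, at an FC under 1.5. The adjusted p of Cftr was 0.0146 in the exact test and 0.0147 in the fit of all 15 libraries. The quasi-likelihood test called 0.0721% of genes higher and 0.312% lower. At an unadjusted p under 0.05, 2 of 9 members were higher and 2 lower, against 11.4% and 10.6% of genes, and 1 lay wholly higher and 1 wholly lower, against 14.6% and 13.1%. The GC-dependent libraries are those of 1 side of this comparison. With the correction the log2 FC was 0.24 for Cftr (unadjusted p = 0.138), 0.48 for Car1 (0.087), -0.86 for Aqp8 (0.0114) and -0.60 for Car4 (0.0569). With the epithelial markers as a covariate it was 0.72, 0.96, -0.84 and -0.27 for the same genes. Markers of mature colonocytes summed to 7910 ± 805 CPM in mutants and 10267 ± 195 in B6 mice, and 4 of the 10 were lower at an unadjusted p under 0.05. Their part in the lower Aqp8 and Car4 was not tested.

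The untreated B6 sets, alike in genotype and state, show how far these genes differed between sets of control mice. Aqp8 had 390, 476 and 462 CPM in set 1 and 392, 228 and 331 CPM in set 2, at a log2 FC of -0.48 ± 0.17 (unadjusted p = 0.0166, adjusted p = 0.183). Car2 had 845 to 1101 CPM and 771 to 825 CPM, at -0.28 ± 0.10 (unadjusted p = 0.0211), and Scnn1a 110 to 116 CPM and 81.3 to 109 CPM, at -0.27 ± 0.10 (unadjusted p = 0.0242). The libraries of Car2 and Scnn1a did not overlap. Cftr, with a mean of 208 CPM in each set, and Gucy2c, with 255 and 246 CPM, were close. No member was called by the quasi-likelihood test, which called 0.0242% of 12417 genes higher and 0.0403% lower. DESeq2 called 77 genes higher and 67 lower and the exact test 111 and 76, without a member. At an unadjusted p under 0.05, 0 of 9 members were higher and 3 lower, against 9.11% and 8.08% of genes, while 0 lay wholly higher and 2 wholly lower, against 10.3% and 11%. Adjusted p-values of the 3 were 0.183 to 0.211.

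A wider set of 98 genes in 7 lists put these values in context, and 79 were in all tables. The lists cover ion and water transport, carbonic anhydrases, cyclic nucleotide steps and transcription factors. RNA came from whole tissue, so their values need not be those of colonocytes. Over both genotypes, 3 of the 79 were called upregulated at D26 and 1 downregulated, against 0.945% and 0.352% of all genes. Aqp3, a channel for water and glycerol, rose at D26 with a mean log2 FC of 1.44 ± 0.16 (adjusted p = 0.000667). It had 4.14 ± 0.502 CPM in untreated B6 mice and 13.1 ± 3.49 at D26. None of the untreated B6 libraries reached the authors' filter of 5 CPM, so Aqp3 entered that table through the D26 group alone, had to be higher there, and adds no support to the count of genes called. Mutants had 5.89 ± 1.22 and 13.7 ± 3.16 CPM, a log2 FC of 1.22 (adjusted p = 0.0295). Car12, a membrane carbonic anhydrase, had a mean log2 FC of 0.99 ± 0.14 (adjusted p = 0.00168), with 12.8 ± 3.45 and 27.6 ± 5.97 CPM in B6 mice. Clca6, of a protein family tied to calcium-activated chloride currents, had a mean log2 FC of 1.33 ± 0.22 (adjusted p = 0.00304). Its level was 67.5 ± 5.65 and 243 ± 144 CPM in B6 mice and 194 ± 8.25 and 339 ± 113 CPM in mutants, and reads may be split among its close paralogs. Fxyd4, a regulator of the sodium pump, fell by 1.10 on the log2 scale (SE 0.19, adjusted p = 0.00327), with 36.9 ± 1.76 and 15.9 ± 4.55 CPM in mutants. With the GC correction the mean log2 FC was 0.99 for Car12, 1.44 for Clca6 and -1.11 for Fxyd4 (adjusted p = 0.00284, 0.00284 and 0.00484).

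No other gene of these lists was called in any comparison by the quasi-likelihood test. Those given here, without the GC correction unless stated, had the smallest p of their list. In the sodium list Fxyd3 had a log2 FC of 0.82 in B6 mice (adjusted p = 0.0157). In the list of cyclic nucleotide steps and scaffolds next to Cftr, Slc9a3r2 had 0.57 in B6 mice (adjusted p = 0.0208). Over both genotypes it had 0.36 (0.00594, at an FC under 1.5). With the GC correction Slc9a3r2 had 0.37 and 0.24 (adjusted p = 0.126 and 0.0584), and Fxyd3 in B6 mice 0.81 (0.0281). Abcc4, an exporter of cyclic nucleotides, had 0.25 in mutants (0.146) with a difference of responses of 0.37 (0.125). Car3 had -1.31 in mutants (adjusted p = 0.0167) and a difference of responses of -1.39 (0.102). Among potassium channels Kcnj16 had -0.65 in mutants (0.122) and a difference of -1.03 (0.22), and Kcnma1 0.16 over both genotypes (0.0665). Among transcription factors Foxa2 had a log2 FC of -0.41 in mutants (adjusted p = 0.027) and -0.40 over both genotypes (0.022). The remaining differences of responses were 0.80 for the sulfate transporter Slc26a2 (adjusted p = 0.2), -0.32 for St14 (0.16) and -0.28 for Aqp1 (0.204). With the GC correction these were 0.68, -0.21 and -0.18 (adjusted p = 0.459, 0.479 and 0.506). In all, 12 of the 79 genes were higher and 11 lower at an unadjusted p under 0.05 in B6 mice, against 14.7% and 14.8% of all genes. In mutants 9 were higher and 9 lower, against 10.1% and 8.47%. The medians of the 79 genes were -0.05 and -0.04, beside 0.01 over all genes in each case.

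**Figure D4:**
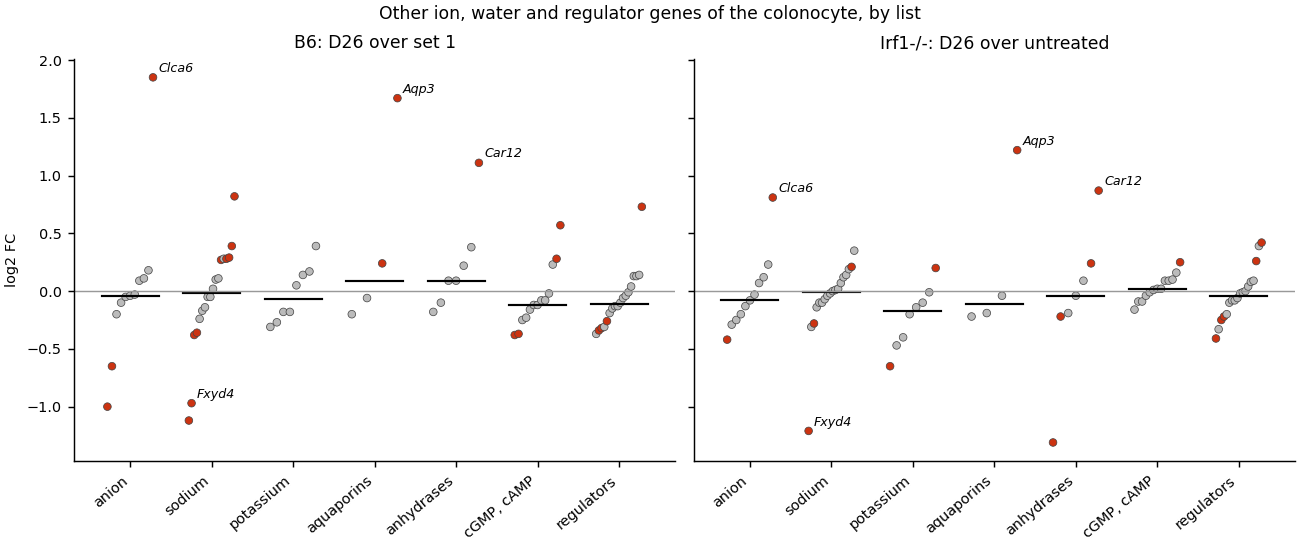
log2 FC (y axis) of the 79 measured genes in 7 lists (x axis) at D26 in B6 mice and in Irf1-/- mutants; red points have an unadjusted p under 0.05 and bars mark medians. Aqp3, Car12 and Clca6 are at the top and Fxyd4 near the bottom in both genotypes, while list medians stay close to 0.

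Between genotypes the same lists were led by other genes, given without the GC correction unless stated. In untreated mutants against set 2, the sodium bicarbonate cotransporter Slc4a4 had a log2 FC of -0.79 (132 ± 31.3 and 228 ± 15.8 CPM, adjusted p = 0.0281), and at D26 it had -0.74 (98.9 ± 15 and 163 ± 35.7 CPM, adjusted p = 0.0621). Slc4a4 loads bicarbonate from the blood side of the cell, upstream of Cftr. The kinase Sgk1, which acts in aldosterone signalling, had -1.11 in untreated mutants (adjusted p = 0.038). It also differed between the untreated B6 sets, at 207 ± 44.2 CPM in set 2 and 89.2 ± 42.5 in set 1 (log2 FC 1.22, adjusted p = 0.0782), and untreated mutants had 95.7 ± 32.5 CPM. Hnf4g, a nuclear receptor of enterocytes, had -0.46 in untreated mutants (45.0 ± 0.704 and 61.7 ± 1.84 CPM, adjusted p = 0.0051), at an FC under 1.5. Car3 had -0.28 (0.468) and the receptor Vipr1 -0.16 (0.477). At D26 the scaffold Slc9a3r1, which binds the end of Cftr, had -0.67 (106 ± 11.9 and 166 ± 15.3 CPM, adjusted p = 0.0241), the sodium proton exchanger Slc9a2 -0.51 (0.0416), Car3 -1.18 (0.0574) and Kcnn4 -0.30 (0.107). With the GC correction Slc9a3r1 had -0.51 (0.0441) and Kcnn4 -0.14 (0.522). Of the 79 genes, 6 were higher and 10 lower in untreated mutants at an unadjusted p under 0.05, against 5.2% and 5.23% of genes, and 10 and 15 at D26, against 11.4% and 10.6%. Between the untreated B6 sets 10 were higher and 12 lower, against 9.11% and 8.08%. There the leading genes were Slc26a2 (-0.76, adjusted p = 0.0425), Kcnj16 (1.03, 0.123), Aqp7 (0.25, 0.278), Car3 (0.51, 0.101), Slc9a3r1 (-0.41, 0.113) and Vdr (-0.43, 0.0591).

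Likeness between the members was described by Pearson's r of log2 CPM over the 15 libraries, and again after the group means were subtracted. These libraries share groups, so r carries no test. Cftr and Car1 were most alike (r = 0.88, and 0.58 within groups), followed by Aqp8 and Car4 (0.72 and 0.52) and Car1 and Car2 (0.69 and 0.62). Aqp8 and Car2 had 0.56 overall and 0.78 within groups. Guca2a went the other way from Car2 (-0.53, and -0.63 within groups), and Scnn1a from Cftr (-0.56, and -0.13 within groups). Cftr and Scnn1a have the lowest and highest GC content of the members (40.7% and 56.5%), and r is without the GC correction. The part of GC content in r was not tested. Among the 12370 genes, those most like Cftr were Rars2, Naip6 and Pdha1 (r of 0.92 to 0.93, and 0.54 to 0.68 within groups), and those most like Car1 were Pcdh17, Rap2a and Pdha1 (0.90 to 0.93). Pdha1, a subunit of pyruvate dehydrogenase, was thus near both. Car2 was among others most like Eno3 and Pbld2 (each 0.93), Car4 like Clic5, Fam83e and the chloride channel Clcn2 (0.87 to 0.92), and Aqp8 like the prostaglandin transporter Slco2a1, Wdtc1 and Max (0.89 to 0.92). Aqp4 was most like Comtd1, Fam92a and Gcg, the proglucagon gene of enteroendocrine cells (0.77 to 0.79). Guca2a was most like Asb6, Rps19bp1 and Fabp2 (0.83 to 0.85), Scnn1a like Ptprh, Slc25a35 and Prr14 (0.88 to 0.91), and Gucy2c, which varied little, like Hk1, Gpr137b-ps and Gpr137b (0.77 to 0.81).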

How the data were processed

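Distal colon RNA of 15 mouse libraries, depleted of ribosomal RNA, had been sequenced as stranded 50 bp pairs. The authors deposited raw read counts per gene in 3 tables, after a filter that kept genes at 5 CPM or more in 3 or more libraries of a table. The submitters' processing notes name TopHat2 2.0.9, Bowtie 1.0.0, featureCounts, edgeR and the mm9 build. The annotation and the strand setting of the counting are not given in the sources used here. The deposited tables also hold 36 columns of CPM and log CPM and columns of the authors' fold changes, p-values and adjusted p-values, which were not used.

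Counts were scaled with TMM and compared with the quasi-likelihood test of edgeR 4.0.16 (R 4.3.3) with Benjamini-Hochberg adjustment over all genes of a comparison. SE is the log2 FC divided by the root of F. The groups follow the labels, and the untreated Irf1-/- libraries, which are in 2 tables, were used once per comparison. CPM by library were set over the 12370 genes of all tables. log2 CPM used a prior count of 2. Alternatives were RLE size factors, library totals, DESeq2 1.42.0, the exact test, 1 fit of all libraries, a 10 CPM filter, the replicate number as a block, a lowess correction on GC content (span 0.3), both together, each library left out, an adjusted p under 0.05 at any FC, other B6 control sets, and epithelial markers as a covariate. GC content and exon length (GENCODE M21) were known for 99.3% of genes. Among the members, Cftr overlaps an antisense gene, Gm15592, by 129 bases. The fit was tested on simulated data. The 10 genes were named whatever their values. From the wider lists the gene with the smallest p in a list, if under 0.05 unadjusted, and all called genes were named, and from the likeness the 3 genes with the highest r. A few genes that this rule names are not reported here. The members and lists were chosen with earlier results of these data known. Figures were drawn with matplotlib 3.10.9 in Python 3.11.15.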

Additional observations from a re-analysis of the deposited data

How the results depend on the processing

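Of 22 log2 FC of members with an unadjusted p under 0.05, 421 values under the alternatives gave 0 changes of sign, 384 on the same side of the threshold, 16 that lost a call and 21 that gained one. The other 42 log2 FC of members changed sign in 71 of 827 values. The number of members called in B6 mice, 0, became 1 with the 10 CPM filter, 2 with all 15 libraries in 1 fit or both B6 control sets, 3 with DESeq2, the exact test or an adjusted p under 0.05, and 0 to 1 with each library left out. At an adjusted p under 0.05, 499 of all 12643 genes were higher and 571 lower in B6 mice. Over both genotypes the 2 calls became 0 with the GC correction or the epithelial covariate, and 0 to 3 with each library left out. They became 3 with DESeq2, with all 15 libraries in 1 fit or at an adjusted p under 0.05. At that adjusted p, 1072 of 12483 genes were higher and 1168 lower over both genotypes. Between untreated genotypes 1 member passed an adjusted p under 0.05 (Aqp4), beside 55 genes higher and 102 lower of 12588. Between treated genotypes the exact test called 1 (Aqp8). RLE size factors and library totals moved no count of members called. Calls over all genes ranged, outside the libraries left out and the looser threshold, from 0 to 262 up and 0 to 218 down in B6 mice, 0 to 188 and 0 to 76 in mutants, 0 to 182 and 0 to 82 over both, 0 to 49 and 0 to 26 for the difference, 4 to 44 and 36 to 91 for untreated genotypes, 0 to 128 and 2 to 149 for treated ones, and 3 to 111 and 3 to 76 for the B6 sets. The epithelial covariate gave 0 calls in either direction in both responses and over both genotypes. Same-numbered libraries were not consistently alike (r of -0.14 to -0.12 in the B6 response, with 0 of 6 libraries most like their own number, and -0.05 to 0.25 in mutants, with 2 of 6). Between untreated genotypes r was -0.00 to 0.06, with 3 of 6. With 3 libraries in a group this cannot exclude a pairing. With the replicate block the count of members called stayed at 0 in B6 mice and 2 over both genotypes, and with the block and the GC correction it was 1 over both. The block changed no other count of members called. In mutants it took the members lower at an unadjusted p under 0.05 from 4 to 7 of 10, beside 1058 of 12692 genes lower. Car2 then had a log2 FC of -0.49 and an adjusted p of 0.0347 in the quasi-likelihood test. The causes of these shifts were not tested. Depth did not limit the members except Guca2b, with 87 to 156 reads.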
